A study of Saccharomyces cerevisiae with 4 samples.

Results

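The glutaredoxin genes of Saccharomyces cerevisiae, GRX1 to GRX8, were followed in cells exposed to b-lapachone. Their 8 open reading frames (ORFs) were taken by name from a table of 6211 ORFs, and all 8 were found. The treated cultures were strain BY4741 in log phase, given 10 µg/ml b-lapachone in DMSO for 1 h, and the cultures they were set against received the vehicle alone, 1% DMSO, for 1 h. Both kinds of culture were grown in YPD rich medium at 28 °C, and both carried the genotype MATa with his3Δ1, leu2Δ0, LYS2, met15Δ0 and ura3Δ0, so a single haploid laboratory strain stands for the species. Each of 4 two-colour arrays, described by the submitters as biological replicates, set b-lapachone RNA against vehicle RNA. The b-lapachone RNA carried Cy5 on replicates 2 and 4 and Cy3 on replicates 1 and 3.

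Glutaredoxins are small oxidoreductases that use glutathione as their electron donor, and the oxidised glutathione is then returned to its reduced form by glutathione reductase at the expense of NADPH. Dithiol forms carry a pair of active-site cysteines and reduce disulphides and mixed disulphides between proteins and glutathione. Monothiol forms carry a single active-site cysteine, and several of them bind iron-sulphur clusters and take part in iron handling rather than in general thiol reduction. b-Lapachone is a naphthoquinone that is reduced in cells and reoxidised by oxygen, a cycle that yields superoxide and peroxide.

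Every value given here is a log ratio from the deposited table, read as log2 of b-lapachone over vehicle. That direction is likely but not settled, because the table states neither direction nor log base. It rests on the usual form of such tables, whereas the titles of the arrays put vehicle before b-lapachone. In the reverse direction each sign given here would turn. If the columns instead held Cy5 over Cy3 on every array, the means below would hold dye bias, and the dye coefficients given further down would hold the treatment effect. With the columns read in that way, calls over all genes numbered 1, against 155 as read here (limma, adjusted p under 0.05). Across genes, Pearson's r between columns ran from 0.0966 to 0.485 over the 6 pairs of arrays, given as a description. It was 0.485 (replicates 1 and 3) and 0.393 (replicates 2 and 4) for arrays of the same dye orientation. Between arrays of opposite orientation it was 0.0966, 0.251, 0.294 and 0.444, above 0 for each pair. A table of ratios holds no level of any gene, so the strain's identity, and which glutaredoxin was most abundant, could not be read from it. Of the 8 genes, 6 had values on 4 arrays. GRX1 had none on replicate 1 and GRX6 none on replicate 2, and their means rest on the other 3 arrays, where the dye swap is not balanced. The number of arrays limits the precision.

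No glutaredoxin gene passed the test for a change. The count was 0 of 8 (limma, Benjamini-Hochberg adjustment over all 5112 genes with at least 3 values), 0 of 8 also had an unadjusted p under 0.05, and the adjusted p values ran from 0.298 to 0.923. Among all genes tested, 3.03% passed with adjustment (2.07% higher and 0.959% lower) and 18.8% had an unadjusted p under 0.05. A share of 3.03% leaves few calls to be found among any 8 genes, so the count of 0 does not set the family apart. The 8 means lay between -0.20 and 0.14, with a median of -0.068 against -0.015 for all genes tested. Means below 0 were found for 6 of the 8, where 53.2% of all genes tested lay below 0. The typical size of a mean, whatever its sign, was 0.10 for the glutaredoxin genes and 0.12 for all genes tested. The smallest mean that passed the test anywhere on the arrays had a size of 0.40.

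The intervals show how large a change the arrays leave room for. Taken gene by gene, without correction for their number, the 95% intervals of limma reached down to -0.42 (GRX3) and up to 0.39 (GRX6), that is, from 1.34-fold lower to 1.31-fold higher at log base 2. A 2-fold mean change therefore lay outside the interval of each of the 8 genes. If the table were in log base 10, a bound of the same size would stand for 2.61-fold, so the statement depends on the base. The statement also takes the columns to run in a single direction of treatment and each spot to report its transcript. Neither is settled here. URA3, labelled ura3Δ0 in both channels, had log2 ratios of 0.29, -0.16, 0.35 and 0.085 on replicates 1 to 4. An interval near 0 therefore does not by itself bound the change of a transcript.

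**Figure D1:**
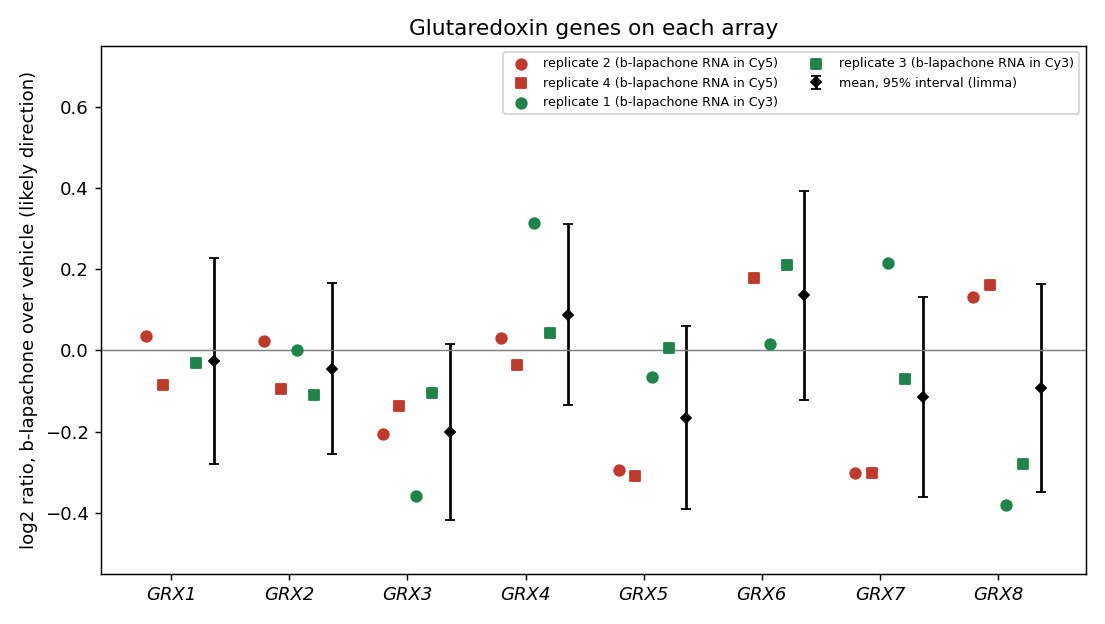
Log2 ratios of b-lapachone over vehicle (likely direction) for GRX1 to GRX8, with 1 coloured point per array (red where b-lapachone RNA carried Cy5, green where it carried Cy3) and a black diamond with a bar for the mean and its 95% interval from limma. All 8 intervals cross 0, and GRX3 lies below 0 on all 4 arrays. GRX4, GRX5 and GRX7 (lower with Cy5, as 18.7% of all genes with 4 values) and GRX8 (higher with Cy5, 23.0%) separate by dye.

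GRX1 (YCL035C) and GRX2 (YDR513W) encode the classical dithiol glutaredoxins, and Grx2 works in both the cytosol and the mitochondria. GRX1 had log2 ratios of 0.036, -0.031 and -0.084 on replicates 2, 3 and 4. GRX2 had 0.00093, 0.023, -0.11 and -0.094 on replicates 1 to 4. Both genes stayed close to 0 on every array that measured them, with values on either side of it. Their means were -0.026 ± 0.060 (SD, n = 3) for GRX1 and -0.045 ± 0.067 (SD, n = 4) for GRX2. These were the smallest spreads in the family, and only 3.17% and 3.97% of all genes tested had a smaller SD. The SD of GRX1 lacks replicate 1, the array with the widest spread over all genes (SD 0.379). Most genes tested (4574 of 5112) have that array, so the rank of GRX1 is not a like comparison. The 95% interval ran from -0.28 to 0.23 for GRX1 and from -0.26 to 0.17 for GRX2.

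GRX8 (YLR364W) encodes a further dithiol-type glutaredoxin of the cytosol. With b-lapachone RNA in Cy5 its log2 ratios were 0.13 and 0.16 (replicates 2 and 4), and with it in Cy3 they were -0.38 and -0.28 (replicates 1 and 3). The dye orientations did not overlap, and the sign of the ratio turned with the dye. Among all genes with 4 values, 7.26% split in sign the same way and 5.27% the opposite way. The mean of -0.092 ± 0.28 (SD, n = 4) averages values of opposite sign, was 0.0043 without replicate 1, and had the widest spread in the family.

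GRX3 (YDR098C) and GRX4 (YER174C) encode related monothiol glutaredoxins of the cytosol and nucleus, which bind iron-sulphur clusters and, with Bol2, hold back the iron regulator Aft1. GRX3 had log2 ratios of -0.36, -0.21, -0.10 and -0.14 on replicates 1 to 4. It was the one member below 0 on 4 arrays, as were 13.7% of all genes with 4 values (26.5% kept a single sign of either kind). Its mean of -0.20 ± 0.11 (SD, n = 4), or 1.15-fold lower, was the largest in size in the family, and 71.9% of all genes tested had a smaller one. It did not pass (limma, unadjusted p = 0.0652, Benjamini-Hochberg adjusted p = 0.298), and its interval ran from -0.42 to 0.015.

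GRX4 had log2 ratios of 0.31, 0.030, 0.043 and -0.035 on replicates 1 to 4. Replicate 1 stood above the other arrays, which lay near 0, and both values with b-lapachone RNA in Cy5 (replicates 2 and 4) lay below both with it in Cy3. The mean was 0.088 ± 0.15 (SD, n = 4), with an interval from -0.14 to 0.31, and it was 0.013 without replicate 1. Set against each other on the same array, GRX3 lay below GRX4 on 4 of 4 arrays, with differences of -0.67, -0.24, -0.15 and -0.10 on replicates 1 to 4. The mean of GRX3 minus GRX4 was -0.29 ± 0.26 (SD, n = 4). It is given as a description: an exact two-sided sign-flip test over 4 arrays cannot reach 0.05, and no other test was run on the difference.

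GRX5 (YPL059W) encodes the monothiol glutaredoxin of the mitochondrial matrix, which passes newly made iron-sulphur clusters on to acceptor proteins. Its log2 ratios were -0.29 and -0.31 on replicates 2 and 4, against -0.065 and 0.0067 on replicates 1 and 3. Both values with b-lapachone RNA in Cy5 lay below both values with it in Cy3, as was the case for 18.7% of all genes with 4 values. The mean was -0.17 ± 0.16 (SD, n = 4), with an interval from -0.39 to 0.059.

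GRX6 (YDL010W) and GRX7 (YBR014C) encode membrane-bound monothiol glutaredoxins of the early secretory pathway. GRX6 had log2 ratios of 0.017, 0.21 and 0.18 on replicates 1, 3 and 4, above 0 on each. Its mean was 0.14 ± 0.10 (SD, n = 3), the highest in the family, with an interval from -0.12 to 0.39. GRX7 had -0.30 and -0.30 on replicates 2 and 4, against 0.21 and -0.070 on replicates 1 and 3. Both values with b-lapachone RNA in Cy5 were the lower ones. The mean was -0.11 ± 0.25 (SD, n = 4). GRX6 minus GRX7 was -0.20, 0.28 and 0.48 on replicates 1, 3 and 4, without a common sign. GRX1 minus GRX2, by contrast, was 0.013, 0.079 and 0.010 on replicates 2, 3 and 4. Cross-hybridisation between GRX1 and GRX2, GRX3 and GRX4, or GRX6 and GRX7 was not tested.

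**Figure D2:**
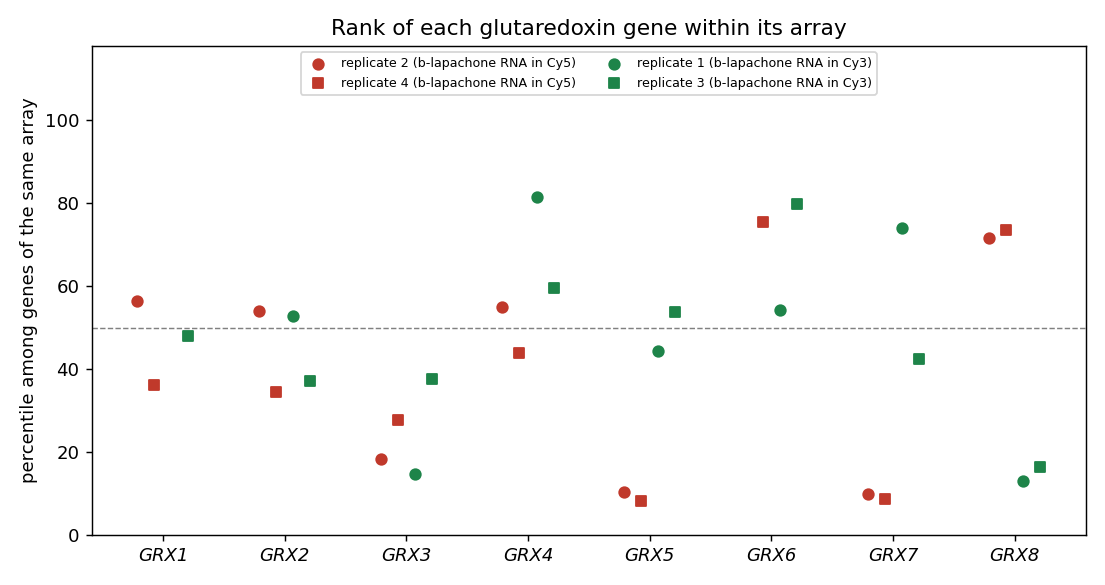
Percentile of each glutaredoxin gene among all genes measured on the same array (low for low ratios), coloured by the dye of the b-lapachone RNA, with a dashed line at the middle. GRX5 and GRX7 lie between 8.16 and 10.3 on replicates 2 and 4, and GRX8 lies at 71.6 and 73.5 on those arrays but at 13.1 and 16.2 on replicates 1 and 3.

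Ranks within an array do not depend on the log base or on the unequal spread of the columns, whose SDs ran from 0.272 to 0.379. By rank, GRX3 lay at percentiles 14.6, 18.2, 37.7 and 27.8 on replicates 1 to 4. GRX5 lay at percentiles 10.3 and 8.16 on replicates 2 and 4, against 44.4 and 53.8 on replicates 1 and 3. GRX7 lay at percentiles 9.89 and 8.59 on replicates 2 and 4, against 74.1 and 42.5 on replicates 1 and 3. Both genes therefore ranked low on the arrays with b-lapachone RNA in Cy5 and near or above the middle on the others. GRX8 ran the other way, at percentiles 71.6 and 73.5 with b-lapachone RNA in Cy5 and at 13.1 and 16.2 with it in Cy3. GRX6 stayed above the middle, between percentiles 54.3 and 79.7 on its 3 arrays.

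The part of each ratio that followed the dye was estimated by a dye coefficient in limma, which is positive where ratios lay higher with b-lapachone RNA in Cy5 and measures the shift of either orientation from their joint mean. Of the 6 genes with 4 values, GRX4, GRX5 and GRX7 had both Cy5 values below both Cy3 values (18.7% of all genes with 4 values), and GRX8 had them above (23.0%). The dye coefficient was largest for GRX8, at 0.24, where 90.5% of all genes tested had a smaller one. It did not pass (unadjusted p = 0.0260, Benjamini-Hochberg adjusted p = 0.455). GRX7 followed at -0.19 and GRX5 at -0.14 (limma, Benjamini-Hochberg adjusted p = 0.549 and 0.637). For GRX8 and GRX7 the dye part was larger than the treatment mean. For GRX4 both were about equal in size, at -0.090 and 0.088. The dye parts of GRX1, GRX2, GRX3 and GRX6 had sizes between 0.0035 and 0.033. A dye effect passed for 0 of the 8 genes, and for 2 of 5112 over all genes (0.0391%), while 9.76% of all genes had an unadjusted p under 0.05. Its part in the treatment means is cancelled by the balanced swap for the 6 genes with 4 values, if the columns run in a single direction of treatment.

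**Figure D3:**
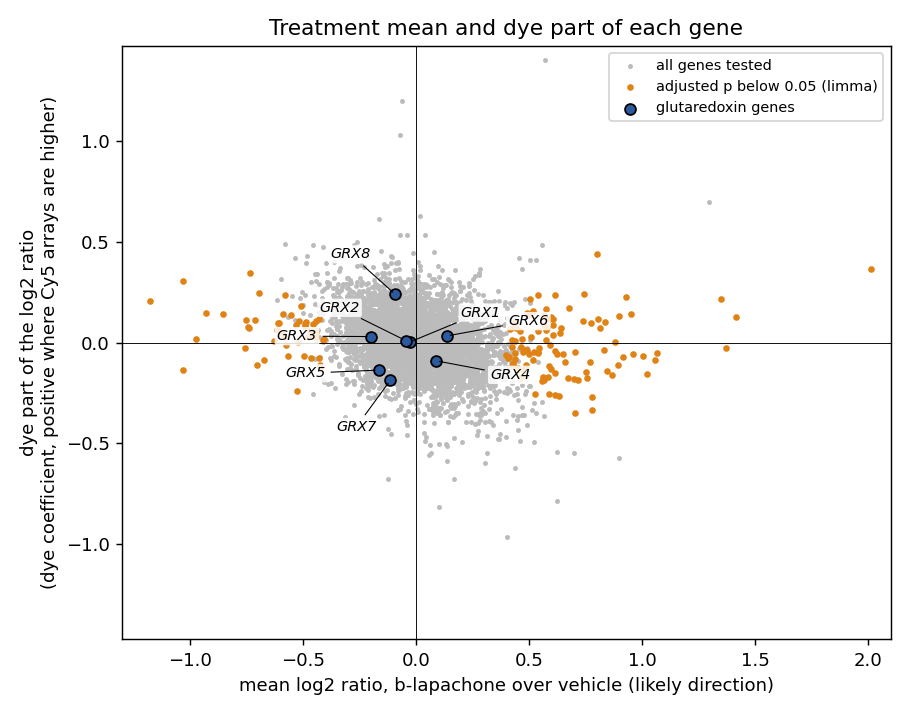
Mean log2 ratio of b-lapachone over vehicle (x axis, likely direction) against the dye part of the log2 ratio (y axis, the dye coefficient, positive where Cy5 arrays were higher) for 5112 genes tested, with the 155 genes that passed limma's test in orange and the 8 glutaredoxin genes in blue. The glutaredoxin genes lie within the grey cloud, GRX8 towards its upper edge at 0.24 and GRX7 lower, at -0.19.

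The thioredoxin system is the other main thiol-reducing system of the cell, and several of its genes changed on the same arrays. Of 11 genes of thioredoxins, their reductases, peroxiredoxins and sulfiredoxin, 6 rose and 1 fell, with a median of 0.58. Over all genes tested, 2.07% rose and 0.959% fell, with a median of -0.015. On the log2 scale SRX1, which repairs overoxidised peroxiredoxins, rose by 1.35 ± 0.25, and TRX2, a cytosolic thioredoxin, by 0.96 ± 0.20 (SD, n = 4 each). TSA2 and PRX1, a cytosolic and a mitochondrial peroxiredoxin, rose by 0.93 ± 0.27 and 0.88 ± 0.21. TRX1, the other cytosolic thioredoxin, was the gene that fell, to -0.56 ± 0.16, with -0.70, -0.42, -0.69 and -0.42 on replicates 1 to 4. TRX1 is named after its value was seen. TRX1 and TRX2 are close relatives, and cross-hybridisation between them was not tested. The largest single value of a glutaredoxin gene, -0.38 for GRX8 on replicate 1, was smaller in size than each of the 4 values of TRX1. Whether the thioredoxin and glutaredoxin genes differ as sets was not tested. Without replicate 3, 4 of the 7 calls in the thioredoxin list were left, those of SRX1, TRX2, TSA2 and PRX1.

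The genes that supply and use glutathione held a single call. Of 14 tested from a list of 18, 1 rose and none fell, with a median of 0.088 and 4 genes at an unadjusted p under 0.05 (limma). Of all genes tested, 2.07% rose, 0.959% fell and 18.8% had an unadjusted p under 0.05. The gene that rose was GPX2, a glutathione peroxidase, at 1.32, 0.98, 0.96 and 0.96 on replicates 1 to 4 and a mean of 1.06 ± 0.18 (SD, n = 4). GLR1, the glutathione reductase that keeps glutaredoxins supplied, had a mean of -0.013 ± 0.16. GSH1 and GSH2, which make glutathione, had 0.19 ± 0.30 and -0.24 ± 0.36. None of these 3 genes passed, and they were picked for naming with their values known.

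**Figure D4:**
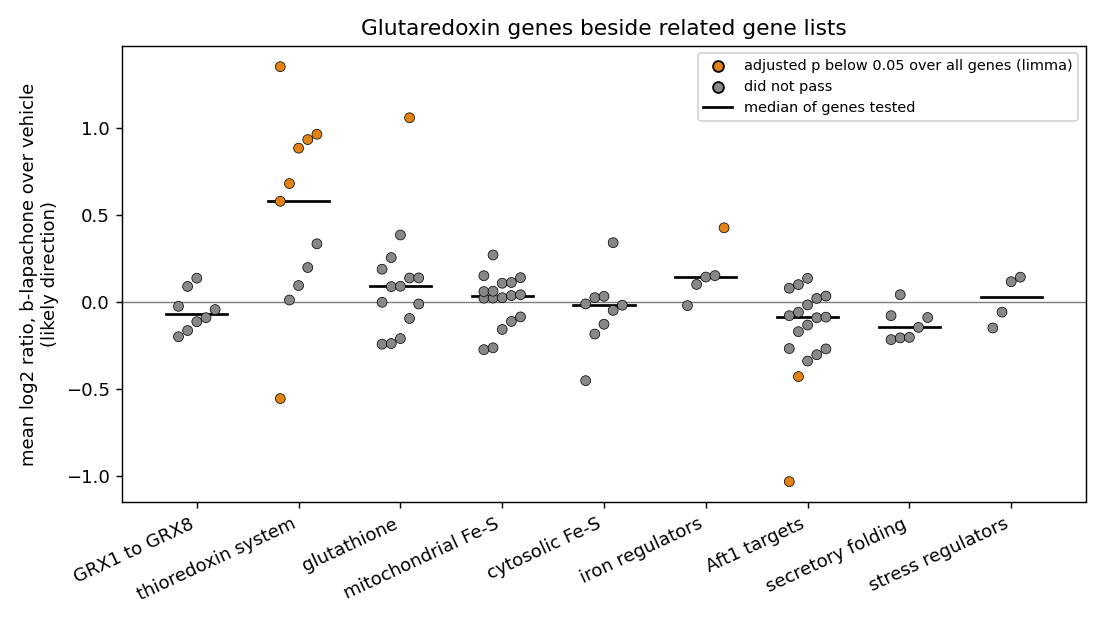
Mean log2 ratios of b-lapachone over vehicle (y axis, likely direction), with 1 point per gene tested, for GRX1 to GRX8 and 8 related gene lists. Orange points passed limma's test over all genes, and black lines are medians. The glutaredoxin genes span -0.20 to 0.14 with no orange point, and the thioredoxin system holds 7 orange points.

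Lists for the processes that the monothiol glutaredoxins serve are to be read against all genes tested, of which 3.03% passed and 18.8% had an unadjusted p under 0.05. None of 17 genes of mitochondrial iron-sulphur cluster assembly, where Grx5 acts, passed (0 by limma, 2 at an unadjusted p under 0.05). Their median was 0.035. The largest in size was MGE1, the nucleotide exchange factor of mitochondrial Hsp70, at -0.28 ± 0.25 (SD, n = 4). None of 9 genes of cytosolic iron-sulphur protein assembly passed either (0 by limma, 2 at an unadjusted p under 0.05), with a median of -0.020. There the largest in size was TAH18, an electron donor of that pathway, at -0.45 ± 0.29 (n = 3).

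Among 5 iron regulators and proteins that act on them with Grx3 and Grx4, 1 rose (limma, also 1 at an unadjusted p under 0.05). It was YAP5, a regulator active when iron is plentiful, at 0.42 ± 0.16 (SD, n = 4), just past the threshold (limma, Benjamini-Hochberg adjusted p = 0.0483) and no longer past it whichever replicate was left out (adjusted p from 0.0672 to 0.274). AFT1 had a mean of 0.099 ± 0.19 and BOL2 of -0.022 ± 0.13, both named after their values were seen. Of 18 Aft1 targets in iron uptake and use, 2 fell and none rose (0.959% of all genes tested fell), and 6 had an unadjusted p under 0.05 (limma). Of their means, 13 of 18 lay below 0, against 53.2% over all genes tested, and the median was -0.090. HMX1, haem oxygenase, fell to -1.03 ± 0.45 (n = 3), and FIT1, a cell wall mannoprotein that holds siderophore iron, to -0.43 ± 0.14 (n = 4). HMX1 lost its call without replicate 3 (limma, Benjamini-Hochberg adjusted p = 0.128), and FIT1 without each replicate in turn (adjusted p from 0.0595 to 0.209).

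In the compartment of Grx6 and Grx7, none of 7 genes of oxidative folding passed (0 by limma, also 0 at an unadjusted p under 0.05). Their median was -0.15, and ERV2, a thiol oxidase of the endoplasmic reticulum, was largest in size at -0.22 ± 0.20. None of 4 tested regulators of stress genes passed (0 by limma, also 0 at an unadjusted p under 0.05; median 0.028). MSN2, one of the general stress activators, was largest in size at -0.15 ± 0.17.

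Among mating-type genes, 2 of 5 specific to a cells, the type of the strain, fell and none rose (limma, 3 at an unadjusted p under 0.05, where 0.959% of all genes tested fell), with a median of -0.22. These were BAR1, the protease that cleaves alpha factor, at -0.76 ± 0.20, and ASG7, a gene of a cells, at -0.73 ± 0.45. Both calls were lost without replicate 3 (limma, Benjamini-Hochberg adjusted p = 0.0726 and 0.268), and that of ASG7 also without replicate 4 (adjusted p = 0.0582). None of 2 tested genes specific to alpha cells passed (0 by limma, also 0 at an unadjusted p under 0.05), with MF(ALPHA)2, an alpha-factor gene, at 0.20 ± 0.24. Of the 4 marker genes that are mutated in the strain, HIS3 and URA3 had values on all 4 arrays, and neither passed (0 of 2 by limma, also 0 at an unadjusted p under 0.05). LEU2 and MET15 (MET17 in the R64 gene table) had no value on any array, as was the case for 544 of the 6211 ORFs. URA3, of uracil synthesis and labelled ura3Δ0 in both channels, had log2 ratios of 0.29, -0.16, 0.35 and 0.085 on replicates 1 to 4, and HIS3, of histidine synthesis, a mean of 0.26 ± 0.30. Going by the label of URA3, a ratio in the table therefore does not by itself show that a transcript was present. The part of the mating-type genes in the values of the glutaredoxin genes was not tested.

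The genes nearest to GRX3 over the 4 arrays were AQY2, an aquaporin gene, at a Euclidean distance of 0.046 between the log2 ratios, SRB7, a Mediator subunit, at 0.070, and PLN1, a lipid droplet protein, at 0.077. They were picked for the smallest distances among 4568 other genes with 4 values, whose median distance was 0.598. Their closeness to GRX3, in pattern and in mean, therefore follows from the choice. AQY2 had -0.34, -0.18, -0.10 and -0.17 on replicates 1 to 4, and its mean of -0.20 ± 0.10 (SD, n = 4) was also the mean of GRX3 to that precision.

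The genes next to the glutaredoxin genes on the chromosomes, from the R64 gene table, did not pass either. Of 16 neighbours 13 were tested, and 0 of 13 passed (limma, 1 at an unadjusted p under 0.05). Over all genes tested the shares were 3.03% and 18.8%, and a share of 3.03% leaves few calls to be found among 13 genes. GRX2 overlaps its neighbour EMI1, and GRX6 overlaps YDL009C, in that table. EMI1 had a mean of 0.0048 ± 0.19 and YDL009C of 0.026 ± 0.33 (SD, n = 4 each), and the sources used here do not say whether the probes separate overlapping genes. YDL011C, an ORF that the R64 gene table does not list and whose name places it beside GRX6, had 0.50, 0.31, 0.31 and 0.087 on replicates 1 to 4. Its mean of 0.30 ± 0.17 was not past the threshold (limma, Benjamini-Hochberg adjusted p = 0.145), and it was added after its values were seen.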

How the data were processed

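Total RNA of 4 b-lapachone and 4 vehicle cultures was labelled indirectly and hybridised to 4 arrays, per the labels' protocols. The authors deposited log ratios, read here as log2. The sources used here state no scanner, background correction, normalization, log base, direction of the ratio or genome build. Missing values were left missing. All 4 columns were used.

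Limma 3.58.1 (R 4.3.3) compared the mean of each gene with 0 by lmFit and eBayes, with an intercept alone, a two-sided threshold of 0.05 and Benjamini-Hochberg adjustment over 5112 genes with at least 3 values. The fit was tested on simulated data. "Rose" and "fell" are used of genes that passed. Symbols came from the R64 gene table, which lists 8 of 8 members. All members are named, and from each of 11 lists up to 4 called genes, or the largest in size where none was called. Likeness was Euclidean distance from the member with the mean of largest size among those with 4 values. The members and lists were chosen with earlier results of these data known. Alternatives are given in the closing section.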

Additional observations from a re-analysis of the deposited data

Results flagged for a closer look

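GPX2 had 1 array that stood apart, replicate 1 at 1.32, against 0.96 to 0.98 on the other 3 arrays, and its mean without that replicate was 0.97. The median of the iron regulator list also stood apart on replicate 1, at 0.36, against 0.068 to 0.12 on the others. These were 2 of 36 sets of 4 values examined, and chance alone marks about 1 in 20. None of the glutaredoxin genes was among them.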

How the results depend on the processing

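None of the 8 glutaredoxin genes passed under any of the 14 alternatives run (13 for GRX1 and GRX6, which lack an array), and the lowest adjusted p was 0.251, for GRX3 (limma, Benjamini-Hochberg). GRX5 and GRX7 kept a mean below 0 in each alternative. Read as Cy5 over Cy3 on every array, the means changed sign for GRX2 (0.0094), GRX3 (0.030), GRX4 (-0.090), GRX6 (-0.016) and GRX8 (0.24), and calls over all genes numbered 1, against 155. Leaving out each replicate in turn, means ran from -0.058 to 0.0025 for GRX1 (above 0 without replicate 4), -0.068 to -0.023 for GRX2, -0.23 to -0.15 for GRX3, 0.013 to 0.13 for GRX4, -0.22 to -0.12 for GRX5, 0.098 to 0.19 for GRX6, -0.22 to -0.052 for GRX7, and -0.18 to 0.0043 for GRX8 (above 0 without replicate 1). The dye part changed sign with centred arrays for GRX1 (-0.0059) and GRX2 (-0.0012) and with scaled arrays for GRX3 (-0.0022). Calls over all genes numbered 0 with each gene's own variance, 263 with array weights, and 28 to 157 with a replicate left out (28 without replicate 3, 64 without replicate 4). With a replicate left out, calls numbered 4 to 7 in the thioredoxin list, 0 in the iron regulator list, 0 to 1 among Aft1 targets and 0 to 2 among genes of a cells. The causes were not tested. These fits took genes with at least 2 of 3 values. Each array holds both RNAs of its replicate, so each log ratio is already a paired comparison, and the fits on these ratios keep that pairing.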
